A study of Saccharomyces cerevisiae with 30 samples.

Results

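The genes described here are the outermost measured protein-coding genes of every chromosome arm of the budding yeast Saccharomyces cerevisiae. The strain was S288C, a laboratory haploid described as mating type alpha. They were chosen from their systematic names, which give the chromosome, the arm and a number that rises from the centromere to the chromosome end. The 8 highest-numbered measured genes on each of the 32 arms gave 256 positions. From these, 25 genes of iron, biotin, thiamine, phosphate, zinc and hexose uptake and of a few other named families were set aside by symbol, which left 231 members among 5449 measured genes. The rule reads names and positions only. A gene table of assembly R64 placed the same 231 genes within the first 8 measured genes of their arms. Transcripts were measured on 30 Affymetrix arrays, 1 per culture. All cultures were S288C in synthetic dextrose medium, with 3 biological replicate cultures in each of 10 groups. Cultures were given eupolauridine-9591 (E9591) at 0.053 µM for about 4 h or about 15 h, liriodenine methiodide (LMT) at 2.6 µM for about 4 h or about 15 h, or, for about 4 h, the metal chelators 2,2'-bipyridyl (BIPR) at 65.9 µM or 1,10-phenanthroline (PHEN) at 6.2 µM. The chelators serve as comparison treatments that bind iron. Doses differ between compounds, since every compound was used at its own IC50. The 4 DMSO control groups (0.25%) belonged to 4 experiments, namely E9591 at 4 h, LMT at 4 h, both chelators at 4 h, and E9591 with LMT at 15 h.

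Yeast chromosomes end in telomeric repeats, and the stretch next to them, the subtelomere, is poor in genes needed for growth in rich medium. Silencing proteins of the Sir family spread inward from the telomere and can hold nearby genes at a low level, which is called the telomere position effect. Subtelomeres carry gene families whose copies sit on many different ends, such as the seripauperin (PAU) cell wall proteins, the COS membrane proteins and the maltose genes, along with single genes used in particular nutritional states. Because copies of a family can be nearly identical in sequence, an array probe set designed for one copy can hybridise with others. Probe sets marked by the manufacturer as shared were found for 44 members, and values of such members, called shared-type below, may sum over copies.

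Probe sets of the genes nearest the ends gave lower signal than those of genes further in. On the log2(intensity + 1) scale, used for every level below, the median of the 227 tested members in the DMSO cultures at 4 h was 8.50. It was 10.12 for positions 9-16 from the end, 10.13 for positions 17-24, 9.98 for positions 25-32 and 10.02 for all genes further in. These medians describe probe set signal, which also depends on the probes. The 4 members that were not tested (YAL067W-A, TDA8, YHR212W-A and YOL166W-A) were above background on fewer than 3 arrays. Background was the 95th percentile of probe sets for another yeast species on each array, between 3.61 and 5.15 on the log2 scale. Between 91.2% and 99.6% of tested members lay above it on any 1 array, against 97.3% to 99.4% of all tested genes. Shared-type probe sets made up 18.9% of tested members, 2.75% of genes at positions 9-16 and 1.15% of genes further in. The gene table lists 345 coding genes from the arm ends in to the eighth measured gene, of which 89 were not measured here, 47 of them outside the outermost measured gene on 20 arms. The outermost member is therefore often not the last gene of its chromosome.

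The SD of the difference between replicate arrays, over all genes, was 0.18 to 0.39 per pair, and the widest pair was in the DMSO group beside the chelators. A change is the mean of the treated cultures minus that of the DMSO cultures beside them, on the log2 scale and ± its standard error (n = 3 cultures in each group). In these bulk cultures fewer cells with a transcript and less of it per cell cannot be told apart. A gene was called at a Benjamini-Hochberg adjusted limma p under 0.05 over 5429 genes. The labels call the replicates biological. The 4 alpha-cell markers lay between 7.18 and 14.41 over all arrays and the 7 a-cell markers between 2.85 and 11.63. The a-cell markers were all called up with E9591 and with LMT at 4 h (medians 2.19 and 1.68), and the alpha-cell markers were all called down with LMT at 4 h (median -1.34). Its part in the results below was not tested.

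Many genes near the ends rose after 4 h with E9591, few fell, and no member was called down by 2-fold. Of 227 tested members, 115 were called up, which is 50.7% against 32% of all tested genes, and 12 were called down, 5.29% against 11.3%. A rise of at least 2-fold was called for 43 members, 18.9% against 4.29% of all genes, and a fall of that size for 0 members and 0.0% of all genes. The median change was 0.29 over members and 0.09 over all genes. Away from the ends the share raised at least 2-fold was 9.41% at positions 9-16, 3.15% at positions 17-24, 2.83% at positions 25-32 and 3.26% further in. Within the members it was not higher at the very end: 16.2% of positions 1-4 and 21.8% of positions 5-8 rose by 2-fold. Low level and position overlapped, since 134 of the tested members belonged to the lowest of 3 equal groups of genes by mean level. In that group 27.6% of members and 7.76% of other genes rose at least 2-fold, in the middle group 4.08% and 2.10%, and in the highest group 9.09% and 1.30%. The count depended on the scaling of the arrays. After quantile normalization 71 members were called up and 36 down (all genes 943 and 1268), with 16 up at least 2-fold (7.05%, against 2.32% of all genes), and after centring each array on its median the counts were 90, 33 and 30 (all genes 1075 up, 1630 down and 3.13%). Centring moved the median of all genes from 0.09 to -0.07 for E9591 and from 0.10 to -0.11 for LMT at 4 h, and changes below are relative to the deposited scaling.

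**Figure D1:**
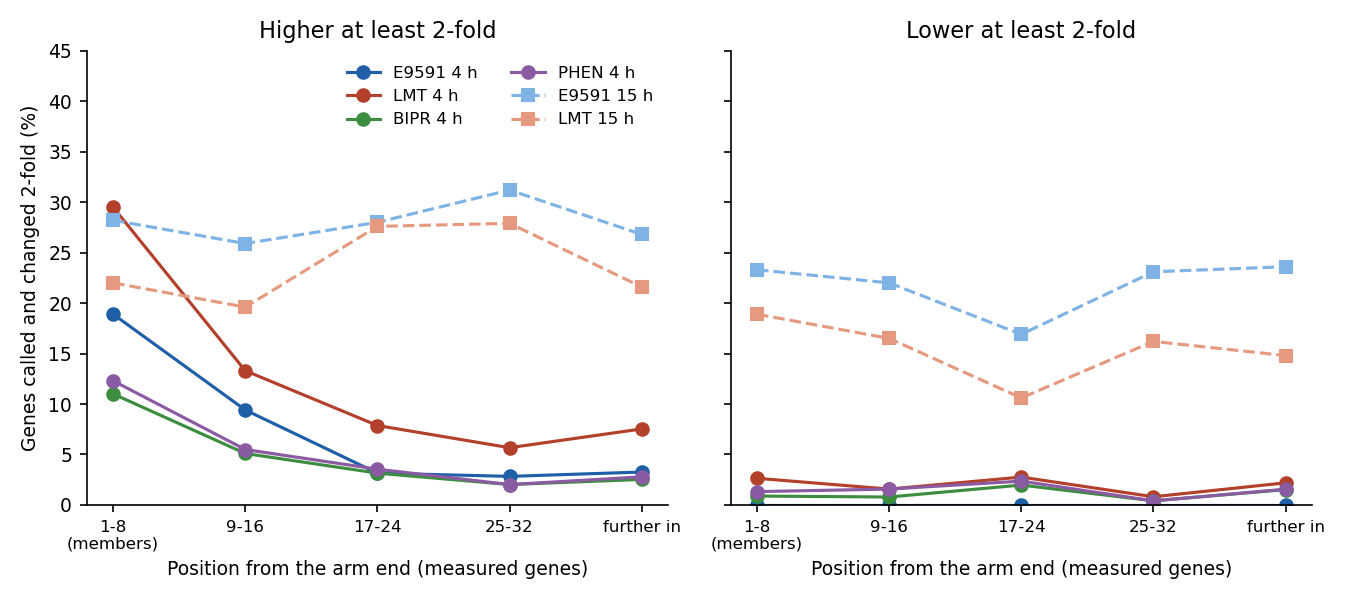
Share of genes called and changed at least 2-fold (vertical axis, percent of tested genes) by position from the arm end in measured genes, for the 6 treatments, each against its own DMSO cultures (higher on the left, lower on the right). At 4 h (solid lines) the share raised was greatest at positions 1-8, for example 29.5% with LMT against 7.53% further in, while at 15 h (dashed lines) the share raised lay between 19.6% and 31.2% at all positions.

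VBA3, a vacuolar transporter of basic amino acids with a shared-type probe set, showed the greatest rise of any member with E9591. It read 3.71, 4.07 and 5.25 on the 3 DMSO arrays and 9.67, 9.59 and 9.79 with E9591, a change of 5.34 ± 0.30 (adjusted p = 8.14e-13). In DMSO it lay below background on 2 of 3 arrays, and no DMSO array came near an E9591 array. With levels raised to background its change was 4.62. YNR068C read 7.98, 8.18 and 7.81 in DMSO and 10.40, 10.31 and 10.33 with E9591, and rose by 2.36 ± 0.10 (adjusted p = 3.59e-15). YAT1, a carnitine acetyltransferase of mitochondria, read 8.98, 8.99 and 9.13 against 11.29, 11.13 and 11.11, and rose by 2.14 ± 0.11 (adjusted p = 1.08e-13). Both genes were well above background throughout, and their treated and control arrays did not overlap. Further large rises belonged to YJR149W (2.49 ± 0.15), BSC5 (2.26 ± 0.18), SNO4 of the HSP31 chaperone family (2.18 ± 0.14, shared-type), YAL064W (2.02 ± 0.26), YJL213W (1.97 ± 0.10) and PCA1, a P-type ATPase that transports cadmium (1.88 ± 0.13). YMR315W-A was below background on all 3 DMSO arrays, and its rise of 2.20 ± 0.47 is bounded only at 1.02-fold or more. YAL064W averaged 4.73 in DMSO, below the background of those arrays (4.95 to 5.15), so the size of its rise is uncertain.

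The members that fell with E9591 at 4 h fell by little. SEO1, a putative permease, read 9.73, 9.77 and 9.63 in DMSO and 9.20, 9.33 and 9.39 with E9591, a change of -0.40 ± 0.13 (adjusted p = 0.0188). URA1, the dihydroorotate dehydrogenase of pyrimidine synthesis, changed by -0.30 ± 0.05 (adjusted p = 5.50e-05), and the ribosome assembly factor KRR1 by -0.31 ± 0.11 (adjusted p = 0.0236). The arrays of each of these 3 genes did not overlap between groups. The remaining called falls among named members, in RMD6, EGT2, ERV29, HYR1, IRC24, GAB1 and PGA3, lay between -0.27 and -0.17. The count of 12 called down went to 7, 4 and 6 without DMSO array A, B or C and to 5, 8 and 8 without E9591 array A, B or C. Members called in either direction went from 55.9% to between 46.7% and 48.9% in these settings, and the matching counts over all genes are not given here. SEO1 had an adjusted p of 0.0601 without DMSO array B and of 0.0727 without E9591 array A. KRR1 had 0.0602 without DMSO array A, 0.0595 without DMSO array C and 0.0967 without E9591 array A. RMD6, EGT2, ERV29, IRC24, GAB1 and PGA3 also lost their call when some single arrays were left out.

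LMT at 4 h changed more members. It raised 135, 59.5% against 40.4% of all genes, and lowered 37, 16.3% against 25.2%. At least 2-fold rises were called for 67 members (29.5% against 8.80%) and 2-fold falls for 6 (2.64% against 2.16%), and the median change was 0.45 against 0.10 over all genes. After quantile normalization 99 members were up and 56 down (all genes 1595 and 1903), with 40 up by 2-fold (17.6%, against 5.54% of all genes), and after centring 111, 55 and 49 (all genes 1518, 2168 and 6.34%). In the lowest of the 3 groups by level 41.8% of members and 14.8% of other genes rose at least 2-fold, in the middle group 12.2% and 5.51%, and in the highest group 11.4% and 3.74%. With the other 4 h DMSO groups in place of the DMSO group beside LMT, a setting chosen after seeing the data, 138 members were called up and 57 down, with 2572 and 1763 over all genes. The experiments with E9591 and LMT at 4 h have separate DMSO cultures, and 105 members were up in both, which is 91.3% of those up with E9591 and 77.8% of those up with LMT. Over all genes the shares were 86.5% and 68.5%.

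The gene with the greatest rise was again VBA3, at 4.00, 3.29 and 4.55 in DMSO and 10.12, 10.41 and 9.79 with LMT, a change of 6.16 ± 0.30 (adjusted p = 1.87e-14). JEN1, a lactate and pyruvate permease, read 5.16, 5.80 and 4.99 in DMSO and 8.82, 8.92 and 8.66 with LMT, and rose by 3.48 ± 0.23 (adjusted p = 5.29e-12). Both were low in every DMSO culture at 4 h and high in every LMT culture. SNO4 rose by 3.16 ± 0.14, YNR068C by 3.13 ± 0.10, the oligopeptide transporter OPT2 by 3.02 ± 0.40, YJR149W by 2.94 ± 0.15, BSC5 by 2.62 ± 0.18, the formate dehydrogenase FDH1 by 2.57 ± 0.30, YAL064W by 2.42 ± 0.26 and the cyanamide hydratase DDI3, shared-type, by 2.40 ± 0.26. Their LMT arrays all lay above their DMSO arrays. BSC5 was lower in the DMSO group beside LMT (mean 4.96) than in the other 4 h DMSO groups (6.68 and 6.80), and against those groups it rose by 0.83. FDH1 then rose by 1.72, JEN1 by 2.55 and OPT2 by 2.43. In the DMSO cultures beside LMT, FDH1 (mean 3.91) and VBA3 (3.95) lay near background (3.83 to 4.06), and OPT2 (4.17) little above it. The sizes of their rises are therefore uncertain.

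Falls with LMT reached 2-fold and more. SEO1 read 8.63, 8.94 and 9.13 in DMSO and 7.21, 7.47 and 6.81 with LMT, a fall of -1.74 ± 0.13 (adjusted p = 6.68e-11). YEL073C changed by -1.63 ± 0.16 (adjusted p = 2.81e-09). IMD2, an IMP dehydrogenase of guanine nucleotide synthesis with a shared-type probe set, read 12.81, 12.72 and 12.96 against 11.44, 11.63 and 11.42 (-1.33 ± 0.12, adjusted p = 1.31e-09). None of these 3 genes had overlapping groups. The exocytosis protein SRO77 changed by -1.06 ± 0.16, YJL218W by -1.06 ± 0.10 and the DNA photolyase PHR1 by -1.05 ± 0.13. Against the other 4 h DMSO groups YJL218W changed by -0.63 and PHR1 by -1.86.

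The difference between the LMT and E9591 effects at 4 h, each against its own DMSO, was called for 64 members (28.2%, against 26.0% of all genes), 39 with the LMT effect higher (17.2% against 12.4%) and 25 with it lower (11.0% against 13.5%). JEN1 (2.03 ± 0.33, adjusted p = 6.89e-05), OPT2 (2.01 ± 0.57, adjusted p = 0.0106) and ERO1, the thiol oxidase of the endoplasmic reticulum (1.19 ± 0.08, adjusted p = 9.64e-11), were higher with LMT. SEO1 (-1.33 ± 0.19, adjusted p = 1.31e-05), YEL073C (-1.30 ± 0.22, adjusted p = 0.000111) and PHR1 (-1.14 ± 0.18, adjusted p = 5.66e-05) were lower. These differences also hold the differences between the DMSO groups. In DMSO, JEN1 averaged 5.32 beside LMT and 6.30 beside E9591, and OPT2 4.17 and 5.16. SEO1, YEL073C and PHR1 were also lower in DMSO beside LMT, while ERO1 was higher there (11.61 against 11.37). With limma array weights 115 members differed, and over all genes 1097 were higher and 1061 lower with LMT. For VBA3 the difference was 0.82 with a 95% interval from -0.06 to 1.70, and it was not called. The doses differ, so these values compare each compound at its own IC50, and the compounds were in separate experiments at 4 h.

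The median change varied between arms. On the right arm of chromosome XI 7 of 8 members were called up with E9591 and 7 of 8 with LMT at 4 h (medians 0.86 and 1.19), and none of these probe sets was shared-type. High medians were also found on XIV R (0.98 and 1.09, with 5 of 7 up in each), X R (0.89 and 1.33, with 4 of 5 up) and I R (0.85 and 1.11, with 5 and 6 of 7 up). On XII R 3 of 8 members were up with E9591 and 0 with LMT, where 3 were down (medians 0.27 and -0.15). The median of V L was negative with both (-0.09 and -0.31). Genes of 1 arm are neighbours and were not treated as replicates, and no test between arms was made.

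**Figure D2:**
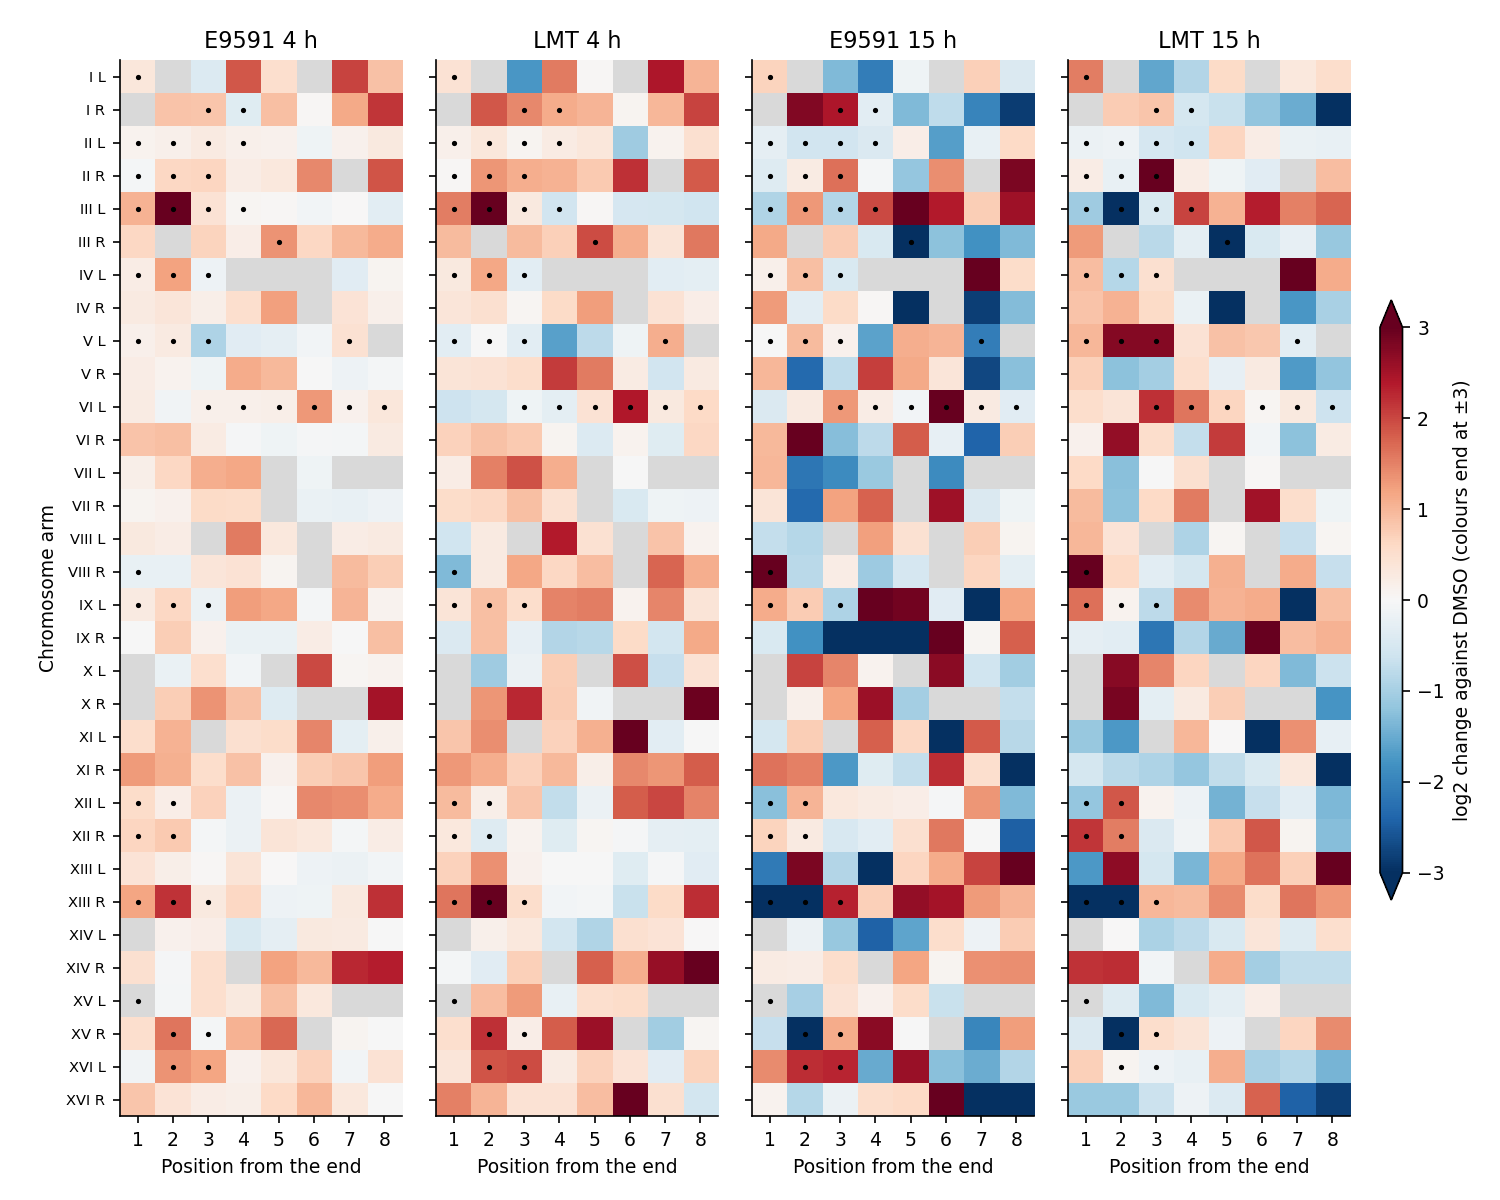
Log2 change of each member against its DMSO cultures (colour, ending at ±3) by chromosome arm (rows) and position from the end in measured genes (columns), for E9591 and LMT at 4 h and at 15 h. Grey cells are genes set aside by name or not tested, and dots mark shared-type probe sets. The 4 h panels are mostly red with E9591 (115 members called up, 12 down), and the 15 h panels hold both colours in near equal number (101 up and 92 down with E9591).

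Under the deposited scaling the chelators raised fewer members than E9591 or LMT at 4 h. BIPR raised 99 (43.6%, against 27.7% of all genes) and lowered 22 (9.69% against 18.5%), with 25 up by at least 2-fold (11.0% against 3.15%), 2 down (0.881% against 1.46%) and a median change of 0.23. PHEN raised 100 (44.1% against 29.2%) and lowered 26 (11.5% against 19.7%), with 28 up by at least 2-fold (12.3% against 3.44%), 3 down (1.32% against 1.58%) and a median of 0.24. With BIPR quantile normalization gave 84 members up and 32 down (all genes 1221 and 1369). With PHEN it gave 80 and 33 (all genes 1239 and 1431), while centring gave 81 and 37 (all genes 1192 and 1627). The order against E9591 at 4 h depended on the scaling. After quantile normalization E9591 raised 71 members (all genes 943), fewer than either chelator. After centring it raised 90 (all genes 1075), against 91 with BIPR (all genes 1223). PHEN and BIPR share their DMSO cultures. Array C of that group stands apart from the other 2, and without it 81 members were up with BIPR and 83 with PHEN. The matching counts over all genes are not given here, so these falls are not read as particular to the members.

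PBI1 rose most with the chelators. It read 7.41, 7.29 and 7.12 in DMSO, 12.07, 11.90 and 12.32 with BIPR and 12.30, 12.24 and 12.43 with PHEN, changes of 4.83 ± 0.11 and 5.05 ± 0.11. YMR317W read 7.02, 7.59 and 7.57 in DMSO, 11.55, 11.62 and 12.06 with BIPR and 11.95, 11.71 and 11.89 with PHEN, changes of 4.35 ± 0.21 and 4.46 ± 0.21. Both genes were higher in each of the 6 chelator cultures than in any other culture of the series. VBA3 rose here too, by 3.85 ± 0.30 and 3.92 ± 0.30, or by 3.40 and 3.48 with levels raised to background, since 2 of its 3 DMSO arrays lay below it. Rises were also called for PCA1 (2.02 ± 0.13 and 2.18 ± 0.13), YOL162W (1.94 ± 0.12 and 2.09 ± 0.12) and YOL163W (1.73 ± 0.08 and 1.87 ± 0.08). FMP10 read 9.17, 9.15 and 8.89 in DMSO, 6.98, 7.44 and 7.65 with BIPR and 7.25, 7.75 and 7.62 with PHEN, and fell by 1.71 ± 0.13 with BIPR and by 1.53 ± 0.13 with PHEN. YDL241W changed by -1.40 ± 0.14 and -1.32 ± 0.14, and the fluoride exporters FEX1 (shared-type) and FEX2 changed by -0.81 ± 0.10 and -0.77 ± 0.12 with BIPR.

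Between the chelators themselves limma called 0 members and 0.0% of all genes, with 15 members at an unadjusted p under 0.05 and 286 genes in all. With array weights 0 members were called, while over all genes 16 were higher and 5 lower with PHEN. For 213 of 227 members the 95% interval of the difference lay within 2-fold in either direction. Among the others was the monocarboxylate transporter homologue MCH2, 0.82 higher with PHEN (interval 0.42 to 1.22, adjusted p = 0.292). For PBI1 the difference was 0.23 with an interval from 0.01 to 0.45. These are bounds, and the doses of BIPR and PHEN differ.

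The E9591 effect differed from the mean chelator effect for 91 members (40.1%, against 28.9% of all genes), 61 with the E9591 effect higher (26.9% against 18.9%) and 30 with it lower (13.2% against 10.0%). The split was 47 and 53 after quantile normalization (all genes 851 and 850). YNR068C was 2.04 ± 0.13 higher with E9591 (adjusted p = 1.26e-11) and JEN1 1.65 ± 0.31 higher (adjusted p = 0.000236), while YMR317W was -4.53 ± 0.28 (adjusted p = 9.53e-12), PBI1 -4.25 ± 0.14 (adjusted p = 2.51e-16) and YOL163W -1.50 ± 0.11 (adjusted p = 1.08e-10). The LMT effect differed from it for 136 members (59.9%, against 50.8%), 91 higher (40.1% against 29.6%) and 45 lower (19.8% against 21.2%), or 69 and 56 after quantile normalization (all genes 1381 and 1467). JEN1 was 3.68 ± 0.31 higher with LMT (adjusted p = 7.82e-10), and SEO1 was -2.52 ± 0.18 (adjusted p = 4.01e-11), since it fell with LMT and rose with BIPR (0.74) and PHEN (0.82). With the other 4 h DMSO groups in place of the one beside LMT, JEN1 was 2.74 and SEO1 -3.20.

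Counts of the gene groups below stand beside the shares of all genes, which were 32% up and 11.3% down with E9591 at 4 h, 40.4% and 25.2% with LMT at 4 h, 27.7% and 18.5% for BIPR, then 29.2% and 19.7% for PHEN. At 15 h these shares were 45.7% and 42.2% with E9591 and 41.9% in each direction with LMT. Seripauperins are small serine-rich and alanine-poor cell wall proteins best known from anaerobic growth. All 8 PAU members had shared-type probe sets, so single copies cannot be told apart. With PHEN 8 of 8 were called up (median 1.37) and with BIPR 7 of 8 (median 1.23), and 7 stayed called up with each after both other scalings except that centring kept 8 with PHEN. PAU18 read 9.54, 9.49 and 8.99 in DMSO, 10.79, 10.78 and 10.87 with BIPR and 10.90, 10.88 and 10.92 with PHEN. With E9591 at 4 h 6 were up by smaller amounts (median 0.48), which fell to 1 after quantile normalization, and with LMT 5 were up (median 0.41), or 8 against the other 4 h DMSO groups. At 15 h the family split. PAU3 read 10.81, 10.77 and 10.80 in DMSO, 7.61, 7.56 and 7.40 with E9591 and 6.59, 7.44 and 7.40 with LMT (changes of -3.27 and -3.65), and PAU21 changed by -4.20 ± 0.49 and -3.90 ± 0.49. PAU8 read 8.46, 8.30 and 8.34 in DMSO, 8.90, 9.18 and 9.05 with E9591 and 9.88, 10.19 and 9.64 with LMT (0.68 and 1.54). In the DMSO cultures PAU3 was 5.08 and PAU21 5.79 higher at 15 h than at 4 h. The 4 h means of PAU21 (3.95 beside E9591, 3.97 beside LMT and 3.85 beside the chelators) lay near or below background, so the size of its difference is uncertain.

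The COS proteins act in the sorting of membrane proteins into endosomes. Of 8 members, 8 were called up with LMT at 15 h (median 0.79), against 3 up and 2 down with E9591 at 15 h (median 0.19), and after either other scaling 7 stayed up with LMT. COS8 read 11.25, 11.08 and 11.14 in DMSO at 15 h, 10.43, 10.20 and 10.29 with E9591 and 11.45, 11.72 and 11.51 with LMT. It thus moved in opposite directions, by -0.85 and 0.41. COS10 stood out from its family with the chelators, at 7.74, 7.62 and 7.17 in DMSO, 8.96, 9.10 and 9.06 with BIPR and 9.07, 8.37 and 8.99 with PHEN (1.53 and 1.30). At 4 h 2 COS genes were up with E9591, 5 with LMT, 5 with BIPR and 7 with PHEN, and 0 were down with any of these under the deposited scaling. After quantile normalization 1 was down with E9591 and 1 with LMT.

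Maltose genes encode a permease, a maltase and an activator, and the isomaltase genes are relatives of the maltase. Of 9 members 4 were called up with E9591 and 8 with LMT at 4 h (medians 0.55 and 0.78), none was called down, and quantile normalization changed the E9591 call to 3 up and 3 down. MAL33, the activator, read 8.69, 8.66 and 8.58 in DMSO and 9.95, 10.13 and 10.14 with E9591 (1.43), and 9.10, 9.23 and 9.16 in DMSO and 11.39, 11.46 and 11.20 with LMT (2.19). Its arrays did not overlap in either comparison. At 15 h the maltase MAL32, shared-type, read 6.03, 6.33 and 5.99 in DMSO, 7.77, 7.95 and 7.61 with E9591 and 9.07, 9.35 and 8.92 with LMT. In those cultures the maltose permease MAL11 fell by 2.33 with E9591 and by 1.23 with LMT.

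**Figure D3:**
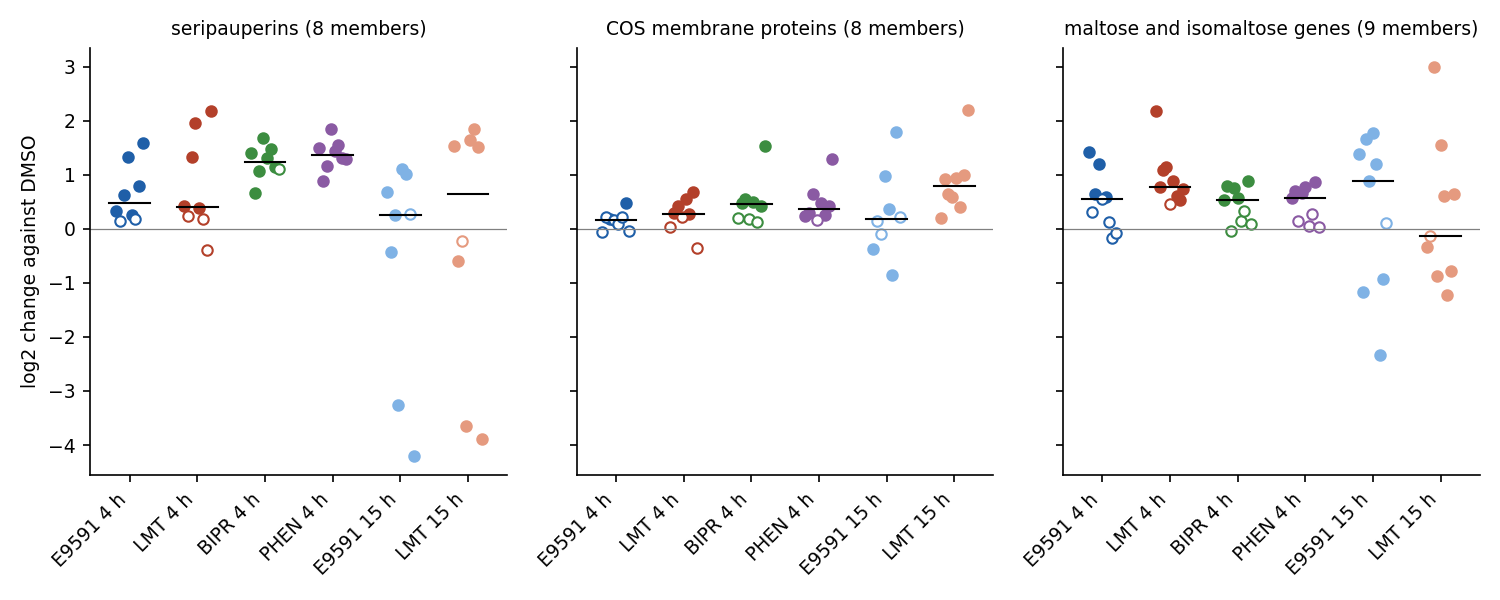
Log2 change of each member of 3 subtelomeric families against its DMSO cultures, by treatment. Filled points passed the test, open points did not, and black lines are medians. The 8 seripauperins are all above 0 with BIPR and PHEN and split at 15 h, and all 8 COS members are above 0 with LMT at 15 h.

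A list of membrane transporters, chosen by symbol, held 16 members. It does not hold every transporter among the members, and PCA1 and MAL11, for example, are not on it. Of the 16, 9 were up and 1 was down with E9591 at 4 h, 12 and 2 with LMT at 4 h, and 8 and 3 with each chelator. At 15 h 8 were up and 6 down with E9591, and 4 were up and 11 down with LMT. Quantile normalization changed the split with E9591 at 4 h to 6 up and 4 down. The glutathione exchanger GEX1 (shared-type) and the porphyrin transporter PUG1 rose with E9591 by 1.04 and 1.12 and with LMT at 4 h by 1.55 and 2.11. Among genes of sulfur compounds the values differed between members. The sulfonate dioxygenase JLP1 rose by 1.39 with E9591 and by 2.00 with LMT at 4 h, while the S-adenosylmethionine permease SAM3 and the S-methylmethionine permease MMP1 changed by 0.14 and 0.03 with E9591, which were not called, and rose by 0.75 and 0.71 with BIPR. The homocysteine methyltransferase SAM4 fell by 0.31 with BIPR and by 0.34 with PHEN and rose by 2.59 with E9591 at 15 h.

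Members without a standard symbol numbered 74, of which 71 were tested. With E9591 at 4 h 38 were up (53.5%, against 50.7% of all members and 32% of all genes) and 0 down. With LMT 45 were up (63.4%, against 59.5% of members and 40.4% of all genes) and 7 were lowered. BIPR raised 28 of them and lowered 6, and PHEN raised 26 and lowered 8. At 15 h 28 were up and 28 down with E9591, and 31 up and 20 down with LMT. After quantile normalization 24 were up and 11 down with E9591 at 4 h. Of the 43 tested shared-type members 24 were up and 0 down with E9591 at 4 h, and of the other 184 members 91 were up and 12 down. These are 55.8% and 49.5% up, against 32% of all genes.

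Among 31 genes whose products act in silencing at telomeres or the silent mating loci, E9591 at 4 h raised 7 and lowered 1, LMT raised 8 and lowered 6, BIPR 5 and 5, and PHEN 4 and 10. Those raised are 22.6%, 25.8%, 16.1% and 12.9% of the list, against 32%, 40.4%, 27.7% and 29.2% of all genes. The list's median was 0.08, -0.04, -0.08 and -0.05. After quantile normalization the counts with E9591 were 4 up and 13 down, and LMT raised 14 against the other 4 h DMSO groups, so no direction is given for the list. SIR3, which binds nucleosomes of silent regions, rose by 0.44 with E9591 and by 0.58 with LMT at 4 h, SIR2, the silencing deacetylase, changed by 0.06 and -0.04, not called, and SIR4, its partner, by 0.08, not called, and 0.28. SIR1, which acts at the silent mating loci and is itself a member on XI R, read 8.20, 8.37 and 8.21 in DMSO and 9.15, 9.10 and 9.16 with E9591, and 8.67, 8.58 and 8.75 in DMSO and 9.64, 9.60 and 9.67 with LMT. It rose by 0.88 and 0.97. Of 11 genes of telomerase and end capping, 6 were up and 0 down with E9591, and 8 were up and 1 down with LMT at 4 h (medians 0.34 and 0.38), or 2 up and 3 down and 3 up and 2 down after quantile normalization. Against the other 4 h DMSO groups LMT raised 5. EST3, a telomerase subunit, rose by 0.84 and 0.78.

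After 15 h genes near the ends changed about as often as other genes. With E9591 101 members were up and 92 down, 44.5% and 40.5% against 45.7% and 42.2% of all genes. At least 2-fold rises were called for 64 (28.2% against 27.1%) and 2-fold falls for 53 (23.3% against 23.2%). With LMT 94 were up and 90 down, 41.4% and 39.6% against 41.9% in each direction, with 50 up (22.0% against 22.1%) and 43 down (18.9% against 14.9%) by at least 2-fold. The median changes were 0.12 and 0.02. After quantile normalization 79 were up and 105 down with LMT, and over all genes 2104 and 2598. These 2 comparisons share their DMSO cultures.

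POT1, the thiolase of peroxisomal fatty acid oxidation, showed the greatest fall. It read 13.57, 13.25 and 13.53 in DMSO, 5.13, 5.26 and 4.45 with E9591 and 7.83, 8.15 and 8.10 with LMT at 15 h, changes of -8.50 ± 0.28 (adjusted p = 2.73e-19) and -5.43 ± 0.28 (adjusted p = 4.66e-15). The aquaporin AQY1 read 12.96, 12.77 and 12.87 in DMSO, 5.86, 5.62 and 5.65 with E9591 and 10.23, 9.99 and 9.89 with LMT, changes of -7.16 ± 0.17 and -2.83. In the 4 h cultures no array read above 5.66 for POT1 or above 6.22 for AQY1, and the high levels were those of the DMSO cultures at 15 h. ERR3, an enolase-related gene (shared-type), fell by 4.90 ± 0.16 with E9591 and by 4.74 ± 0.16 with LMT. PCK1, the first enzyme of gluconeogenesis, fell by 3.93 ± 0.12 and 4.30 ± 0.12, SNO4 fell by 3.94 ± 0.14 and 3.48 ± 0.14, and the glycerol symporter STL1 fell by 3.55 ± 0.48 and 3.33 ± 0.48. JEN1 read 13.62, 13.28 and 13.59 in DMSO and 8.84, 9.07 and 8.66 with LMT, and fell by 4.64 ± 0.23.

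Rises at 15 h included several biosynthetic and catabolic enzymes. CHA1, the serine and threonine deaminase, read 5.53, 6.54 and 6.16 in DMSO, 11.47, 11.58 and 11.60 with E9591 and 6.91, 7.15 and 7.29 with LMT, and rose by 5.47 ± 0.16 with E9591 (adjusted p = 2.46e-20). LYS1 of lysine synthesis read 8.76, 8.70 and 8.79 in DMSO, 13.08, 13.11 and 13.18 with E9591 and 12.19, 12.18 and 12.32 with LMT, and rose by 4.38 ± 0.05 and 3.48 ± 0.05. IMD2 read 7.49, 7.79 and 7.08 in DMSO, 11.37, 11.61 and 11.22 with E9591 and 11.85, 11.77 and 11.64 with LMT, and rose by 3.95 ± 0.12 and 4.30 ± 0.12. In these 3 genes every treated array lay above every DMSO array. The cysteine lyase IRC7 rose by 4.79 ± 0.11, OPT2 by 4.08 ± 0.40, YDL241W by 3.94 ± 0.14, the tubulin gene TUB3 by 3.17 ± 0.08 and the nitrilase NIT1 by 2.89 ± 0.08 with E9591. With LMT YDL241W rose by 3.30 ± 0.14, TUB3 by 3.16 ± 0.08, YJR154W by 2.85 ± 0.17 and ERO1 by 2.69 ± 0.06.

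**Figure D4:**
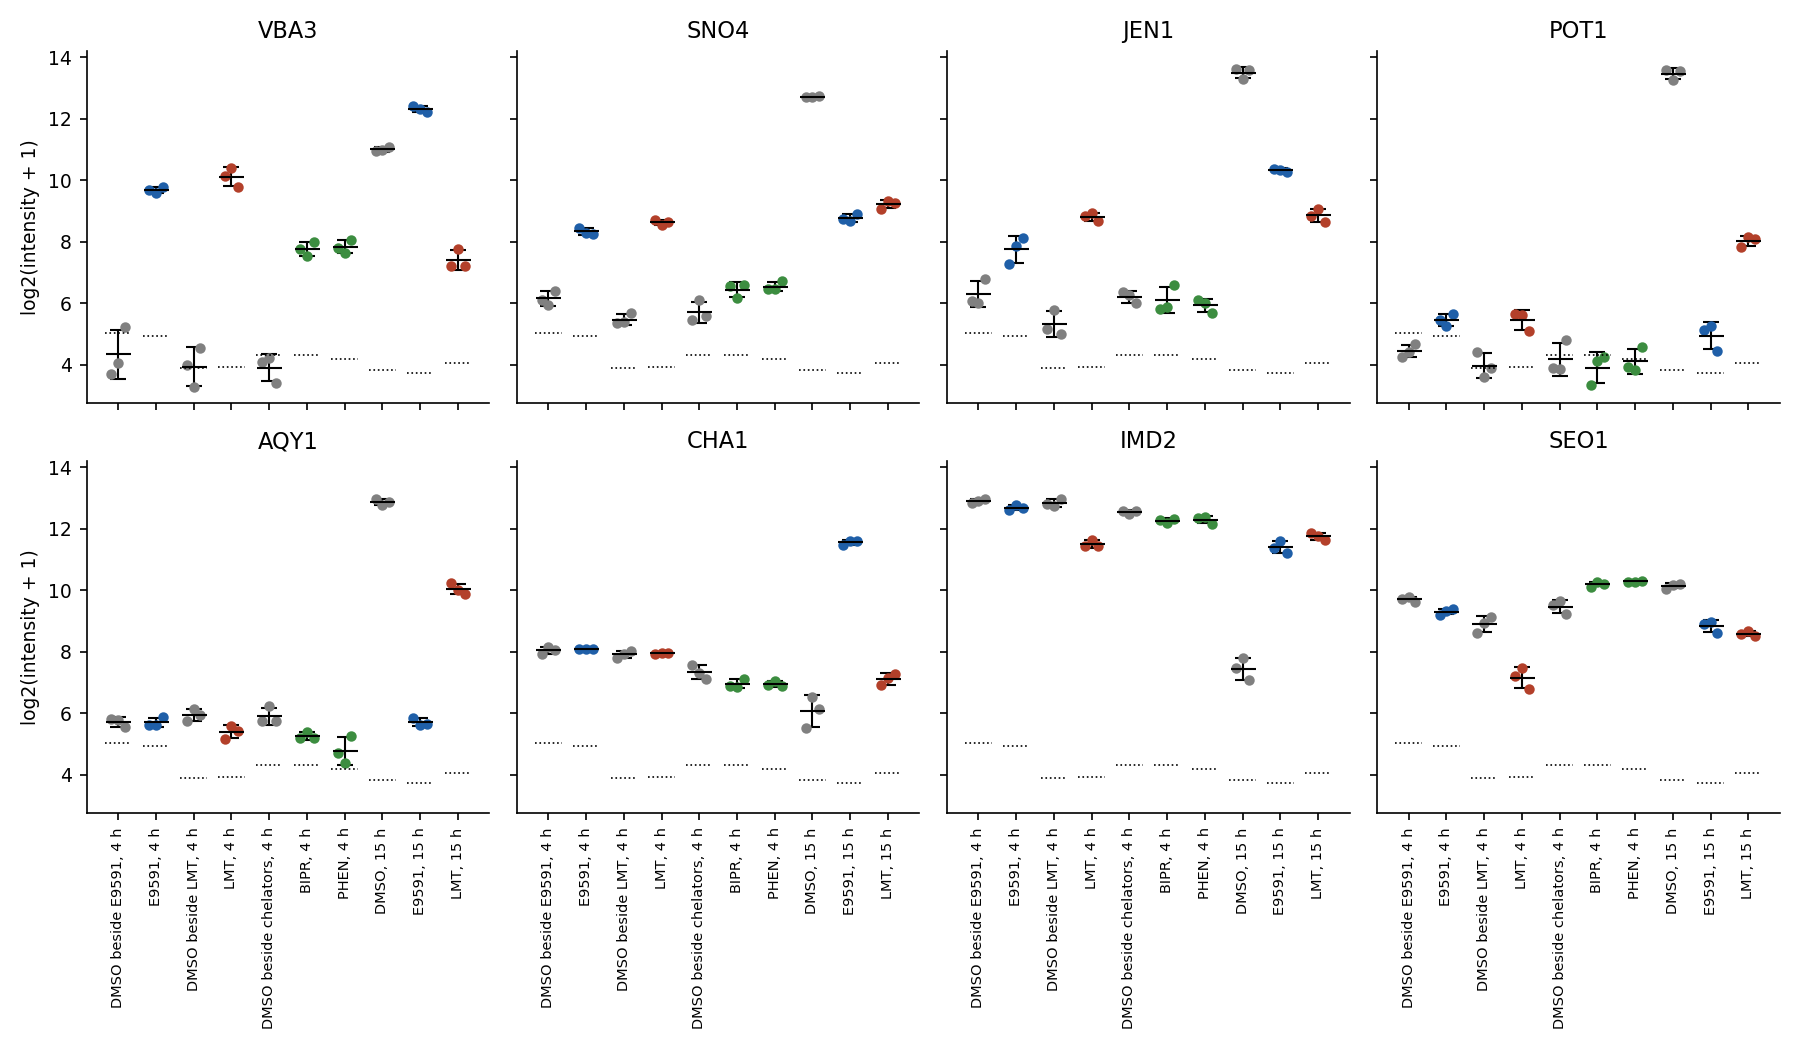
Level of 8 members on each of the 30 arrays, as log2(intensity + 1), by group. Points are arrays, bars are the mean ± SD of 3 cultures and dotted lines are the mean background. VBA3 and SNO4 are higher with E9591 and LMT than with DMSO at 4 h, while SNO4, JEN1, POT1 and AQY1 are highest in the DMSO cultures at 15 h.

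Between the compounds at 15 h, in cultures of the same experiment, 175 members differed (77.1%, against 78.1% of all genes), 89 higher with LMT (39.2% against 39.5%) and 86 higher with E9591 (37.9% against 38.6%), and the doses differ here too. At least 2-fold, 44 were higher with LMT (19.4% against 14.6% of all genes) and 42 were lower (18.5% against 12.5%). AQY1 was higher with LMT by 4.33 ± 0.17 (95% interval 3.98 to 4.68, adjusted p = 8.13e-17), MSC1 by 3.87 ± 0.21 (adjusted p = 2.48e-14), POT1 by 3.08 ± 0.28 (adjusted p = 3.53e-10) and YJR154W by 2.70 ± 0.17 (adjusted p = 2.88e-13). VBA3 was lower with LMT. It read 10.94, 10.97 and 11.09 in DMSO, 12.40, 12.30 and 12.22 with E9591 and 7.20, 7.77 and 7.22 with LMT, and the difference was -4.91 ± 0.30 (interval -5.54 to -4.29, adjusted p = 2.88e-13). CHA1 (-4.43 ± 0.16), DDI3 (-3.25 ± 0.26), the transcription factor BAS1 (-2.69 ± 0.08) and MCH2 (-2.47 ± 0.19) were lower with LMT as well.

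Of the 135 raised by LMT at 4 h, 64 (47.4%) were called down and 45 (33.3%) called up at 15 h, where over all genes the shares were 56.1% and 27.6%. Of the 115 raised by E9591 at 4 h, 38 (33.0%) were down and 63 (54.8%) up at 15 h, with 48.3% and 39.5% over all genes. The change at 15 h differed from that at 4 h for 171 members with E9591 (75.3%, against 84.6% of all genes), 66 with the later effect higher (29.1% against 39.7%) and 105 lower (46.3% against 44.9%), and for 193 with LMT (85.0%, against 82.8%), 71 higher (31.3% against 38.1%) and 122 lower (53.7% against 44.7%). The DMSO cultures differed as well. Between 15 h and the mean of the 4 h DMSO groups 126 members were higher and 66 lower (55.5% and 29.1%, against 48.3% and 42.6% of all genes), with POT1 9.25 ± 0.23 (8.95 with levels raised to background, which most 4 h DMSO arrays did not reach), JEN1 7.55 ± 0.19 and AQY1 7.01 ± 0.14 higher, and IMD2 -5.30 ± 0.10, YDL241W -5.15 ± 0.12 and LYS1 -3.77 ± 0.04 lower at 15 h. Time and experiment cannot be told apart here, and the 15 h comparisons use these DMSO cultures.

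The DMSO cultures of the 3 experiments at 4 h were not alike, near the ends or over all genes. A moderated F test called 161 of 227 members, 70.9% against 70.8% of all genes. The lowest and highest group means of called genes lay at least 2-fold apart in 36 members (15.9%), against 435 genes in all (8.01%), and 25 of the 36 were lowest in the DMSO group beside LMT. Of the 36, 11 were shared-type. Background itself was lower beside LMT (3.83 to 4.06) than beside E9591 (4.95 to 5.15). Some of the 36 were dim, such as YHR213W, whose means of 3.96 beside E9591, 2.40 beside LMT and 2.72 beside the chelators lay below it. The part of background in these counts was not tested. YEL076C, shared-type, read 8.42, 8.80 and 8.16 beside E9591, 5.56, 5.53 and 5.10 beside LMT and 10.14, 9.85 and 9.61 beside the chelators. YBL112C, shared-type, read 12.89, 12.84 and 12.57, then 9.94, 10.49 and 10.23, then 12.93, 13.00 and 13.25 in the same order. YJR154W, not shared-type, read 8.60, 8.70 and 8.36, then 5.07, 5.27 and 5.43, then 8.27, 8.28 and 8.10. In these 3 genes no array beside LMT reached any array of the other DMSO groups, and the cultures with LMT at 4 h read 5.26, 5.58 and 5.29 for YEL076C and 10.58, 10.85 and 10.22 for YBL112C. YMR317W went the other way, at 5.85, 6.14 and 5.82 beside E9591, 8.77, 8.70 and 8.72 beside LMT and 7.02, 7.59 and 7.57 beside the chelators. Each treatment was read against the DMSO cultures of its own experiment, as the sample titles place them. The exception is LMT at 4 h, which was also read against the other 4 h DMSO groups. What differed between the experiments was not tested.

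**Figure D5:**
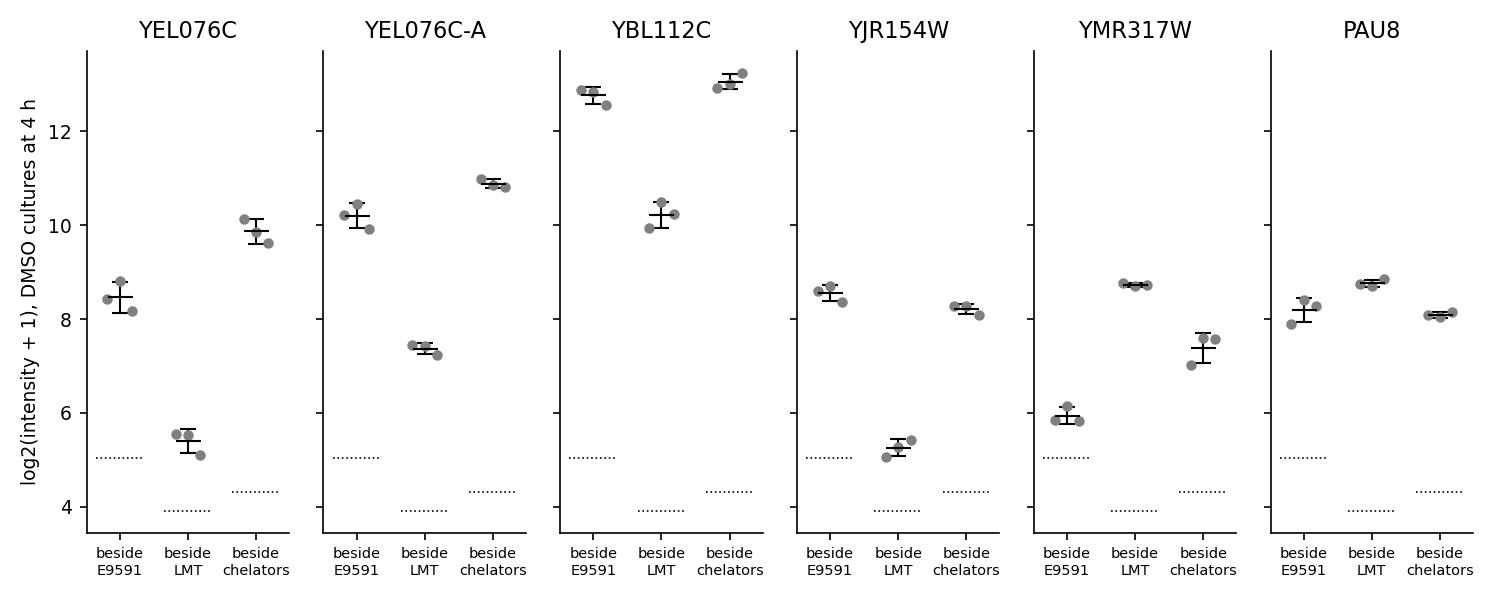
Level of 6 members, as log2(intensity + 1), in the 3 DMSO groups at 4 h, named by the experiment they belong to. Points are arrays, bars are the mean ± SD of 3 cultures and dotted lines are the mean background. YEL076C, YEL076C-A, YBL112C and YJR154W are lowest beside LMT, and YMR317W is highest there.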

How the data were processed

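The authors deposited 1 table of 10928 probe sets on 30 arrays, as linear intensity, per the file headers. Each array had a 2% trimmed mean between 1000.4 and 1000.8, which marks scaling to a common target. Which software made them, and with which background step, is not given in the sources used here. Of the probe sets, 5498 had 1 S. cerevisiae gene in the platform annotation (5449 genes), 1746 another species' gene, 1 several genes and 3683 none here. For 47 genes with several probe sets the brightest was kept, and 12 symbols were updated.

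Background was the 95th percentile of the other-species probe sets on each array. Genes above it on at least 3 arrays were tested (5429, with 20 left out). Only 3 arrays per group limit the precision. The model, in limma 3.58.1 (R 4.3.3), gave 1 mean of log2(intensity + 1) to each of the 10 groups of all 30 arrays (20 residual and 3.16 prior degrees of freedom). P-values are two-sided, adjusted by Benjamini-Hochberg over 5429 genes. Where a group lay below background on all arrays, a change is given as a bound from the brighter group's mean against the higher of background and signal.

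Named genes were, for each treatment, up to 10 called members in each direction whose treated arrays lay outside the range of their DMSO arrays with the higher mean above background, and up to 5 per difference between effects, plus members of the gene lists. Members and lists were chosen with earlier results of these data known. The fit was tested on simulated data. Same-lettered replicates deviated together with a correlation between -0.09 and 0.33, not over 0.1 in every pair, so the letters were not used as pairs. Alternatives were quantile normalization, centring, pseudocount 16, other filters, each experiment alone, array weights, an intensity trend, a replicate block, leaving out each array, probe set means, and 4 or 12 genes per arm.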

Additional observations from a re-analysis of the deposited data

Results flagged for a closer look

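The change at 15 h differed from the change at 4 h, each against its own DMSO cultures, by a test of the difference itself in limma, for 171 genes near the ends with E9591 (75.3%, against 84.6% of all genes) and for 193 with LMT (85.0%, against 82.8%). The 5 greatest differences in each direction follow. With E9591 the later change was higher for CHA1 (5.43), YDL241W (4.27), IMD2 (4.16), LYS1 (4.14) and IRC7 (3.89) and lower for POT1 (-9.52), AQY1 (-7.14), SNO4 (-6.12), ERR3 (-6.07) and PAU21 (-5.80), on the log2 scale. With LMT it was higher for IMD2 (5.63), YJL218W (3.78), YDL241W (3.61), TUB3 (3.50) and YEL075C (3.07) and lower for VBA3 (-9.77), JEN1 (-8.13), POT1 (-6.90), SNO4 (-6.64) and ERR3 (-6.34). The adjusted p was at most 0.00896, for YEL075C. That gene lay below background on all LMT and DMSO arrays of the 4 h experiment and on all DMSO arrays at 15 h, so its difference is no measured size. With levels raised to background it was 0.94, and its rise with LMT at 15 h is bounded only as at least 1.93-fold. In the 4 h DMSO cultures beside E9591, POT1 (mean 4.45) and PAU21 (3.95) lay below background (4.95 to 5.15). Beside LMT, POT1 (3.98) and VBA3 (3.95) lay near it (3.83 to 4.06). The sizes of their differences are therefore uncertain. Both sets of differences use the same DMSO cultures at 15 h, and the times were separate experiments.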

How the results depend on the processing

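Shares are of tested members. With E9591 at 4 h, quantile normalization changed the share called up from 50.7% to 31.3%, the share raised at least 2-fold from 18.9% to 7.05% and the share called down from 5.29% to 15.9%; centring gave 14.5% down, and 4 genes per arm 2.56%. Leaving out single arrays gave 1.76% to 3.52% down, while members called in either direction went from 55.9% to between 46.7% and 48.9%. With LMT at 4 h, quantile normalization gave 17.6% raised at least 2-fold and 24.7% down, and the replaced DMSO group 25.1% down. Array weights gave 29.1% up with PHEN (from 44.1%), where the share of all genes went from 29.2% to 18.7%. They also gave 50.7% (115 members, from 64, with all genes going from 1409 to 1097 higher and 1061 lower) called between the LMT and E9591 effects. Quantile normalization and centring change how each array is scaled to the others; beyond this the causes were not tested. The median level of 8.50 was 8.29 with 4 genes per arm, 9.28 with 12 and 8.73 without shared-type probe sets. Each of these moved by more than 0.09, the SD of the members' array medians over the 9 DMSO arrays at 4 h. The other 686 values, which are shares and counts of called members, moved by at most 1.5 times, including 0 members called between PHEN and BIPR under each alternative. Among counts of genes called up in the gene lists 79 moved by over 1.5 times, among them, with the replaced DMSO group and LMT at 4 h, seripauperins from 5 to 8, silencing genes from 8 to 14 and telomerase genes from 8 to 5. With the replicate block 49.3% of members were called up with E9591 at 4 h (31.6% of all genes) and 60.8% with LMT (40.4%). BIPR raised 44.5% (27.3%) and PHEN 44.9% (28.7%). At 15 h E9591 raised 44.9% (45.7%) and LMT 41.9% (41.8%). No count over members moved by over 1.5 times with the replicate block. Of 190 named gene changes 175 kept their call and direction under every alternative. The exceptions include 8 of the small falls with E9591 at 4 h and genes near background. YMR315W-A with E9591 went from 2.20 to 0.03 when levels were raised to background, and its difference from the chelators went from 1.90 to -0.21. Genes near background are the least precise, and 3 arrays per group limit all values.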
